A study of Arabidopsis thaliana with 24 samples.

Results

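HCT, F6'H1, COSY and S8H are 4 genes of the Arabidopsis route to catechol coumarins, chosen here by their probe sets in the ATH1 platform annotation. They are 4 of the 17810 probe sets tested, 1 probe set for each gene, and none of these probe sets is annotated to a second gene. Their loci are AT5G48930 (HCT), AT3G13610 (F6'H1), AT1G28680 (COSY) and AT3G12900 (S8H). Levels were measured in total RNA of roots and leaves of Arabidopsis thaliana on 24 Affymetrix arrays, in 8 groups of 3 biological replicates. The genotypes were rglg1/2, a double mutant of the RING ubiquitin ligase genes RGLG1 and RGLG2 in the Col background, called the mutant here, and Col, the wild type. Plants of both genotypes grew in continuous light until they were 10 days old. They then spent 3 days on -Fe medium, holding 100 µM of a pyridyl diphenyl triazine sulfonate (an iron chelator of the ferrozine type), or on +Fe medium, holding 40 µM FeEDTA, and were 13 days old at harvest. The groups are thus mutant roots on -Fe, mutant roots on +Fe, Col roots on -Fe, Col roots on +Fe, and the same 4 for leaves. The alleles of the mutant, the number of plants per sample and any pooling of plants are not stated in the labels.

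Arabidopsis roots reduce ferric iron at their surface before taking it up. Under iron shortage they also secrete coumarins, phenolic compounds of which the catechol forms bind and reduce ferric iron. The route leaves general phenylpropanoid metabolism at feruloyl-CoA. HCT is the acyltransferase that joins p-coumaroyl-CoA to shikimate, an early step shared with lignin, and F6'H1 is the 2-oxoglutarate and Fe(II)-dependent oxygenase that hydroxylates feruloyl-CoA and so opens the coumarin branch. COSY closes the lactone ring to give scopoletin, and S8H, another 2-oxoglutarate and Fe(II)-dependent oxygenase, hydroxylates scopoletin to the catechol fraxetin.

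In iron-starved roots of both genotypes, S8H, F6'H1 and HCT rose, and COSY rose in the mutant and did not pass the test in Col. The sizes ran from 5.15 (S8H) to 0.22 (COSY) on the log2 scale in Col roots, and from 5.72 to 0.47 in mutant roots. The COSY call in mutant roots was near the threshold and was lost under several other settings. The HCT call in Col roots was lost when all arrays shared a single estimate of the spread. In leaves none of the 4 genes passed the test for iron in either genotype, although F6'H1 was higher on -Fe on all 3 Col leaf arrays. HCT, F6'H1 and COSY were higher in roots than in leaves on both media, whereas S8H was higher in roots on -Fe and did not pass the test between the tissues on +Fe. S8H was also higher in mutant than in Col roots on -Fe, a call that was lost under several other settings.

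Every value is a log2 signal relative to the probe set's own median over the 24 arrays, so a level can be compared between arrays and not between genes. Between roots and leaves, that comparison also assumes that both tissues were normalized together, which no source used here states. Agreement among the 3 arrays of a group was r = 0.933 to 0.984 over all probe sets, except in mutant leaves. There the third array of each medium correlated with the others at 0.852 to 0.905, against 0.956 and 0.967 between the first and second arrays. The labels of tissue were checked against markers. The mean level of 3 measured green tissue markers was -3.07 to -1.87 on the 12 root arrays and 1.84 to 2.51 on the 12 leaf arrays, and that of 2 root markers (PYK10 and EXPA7) was 1.5 to 1.82 in roots and -2.42 to -1.61 in leaves. In roots, 3 of 3 green tissue markers fell on -Fe in each genotype, where 4.24% of all probe sets were called lower in the mutant and 2.97% in Col, with mean levels of -3.07 to -2.76 in mutant roots on -Fe, against -2.13 to -2.06 on +Fe, and of -3.04 to -2.58 in Col roots on -Fe, against -2.10 to -1.87 on +Fe. Their part in the iron responses of the 4 genes was not tested. The mean difference between 5' and 3' probe sets of the array's control genes, a sign of RNA quality, was 0.196 to 0.237 in mutant roots on -Fe, against -0.088 to 0.170 on +Fe, without overlap. In Col roots it was 0.112 to 0.292 on -Fe and 0.111 to 0.304 on +Fe, which overlapped. Fewer cells of a type and less RNA per cell cannot be told apart in such samples.

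The first question was how each gene stood in iron-starved roots against iron-fed roots of the same genotype. HCT, the earliest step among these genes, had levels of 0.997, 0.957 and 0.994 in mutant roots on -Fe, against 0.290, 0.277 and 0.385 on +Fe. In Col roots it had 0.755, 0.960 and 0.754 on -Fe, against 0.329, 0.356 and 0.418 on +Fe. The media did not overlap in either genotype, although each difference was less than 1 log2 unit. HCT rose by 0.67 ± 0.08 in the mutant (SE, n = 3 arrays each, 1.59-fold, limma adjusted p = 0.00018) and by 0.46 ± 0.08 in Col (1.37-fold, limma adjusted p = 0.00387). The Col call was lost when 1 estimate of the spread was shared by all 24 arrays (limma adjusted p = 0.0802).

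F6'H1, the entry to the coumarin branch, had levels of 2.24, 2.24 and 2.38 in mutant roots on -Fe, against 0.703, 0.538 and 0.833 on +Fe. In Col roots it had 2.098, 2.36 and 2.13 on -Fe, against 0.494, 0.546 and 0.461 on +Fe. All 6 iron-starved arrays lay above all 6 iron-fed arrays, with more than 1 log2 unit between the nearest. F6'H1 rose by 1.60 ± 0.10 in the mutant (3.02-fold, limma adjusted p = 8.64e-08) and by 1.69 ± 0.10 in Col (3.24-fold, limma adjusted p = 3.59e-08). Counted down from the largest rise, it stood at place 49 in the mutant and place 50 in Col among the 17810 probe sets.

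COSY, the ring-closing enzyme, had levels of 1.29, 1.41 and 1.47 in mutant roots on -Fe, against 0.808, 0.936 and 1.03 on +Fe. In Col roots it had 1.12, 1.504 and 1.06 on -Fe, against 0.979, 1.199 and 0.837 on +Fe. The media were apart in the mutant and overlapped in Col, where the second replicate was the highest on each medium. The rise in the mutant was 0.47 ± 0.13 (1.38-fold, limma adjusted p = 0.0386), while the difference in Col was 0.22 ± 0.13 with a 95% interval of -0.04 to 0.49 (limma adjusted p = 0.404). The mutant call rests on a value near the threshold: it was lost on leaving out any 1 of 5 of its 6 arrays, with values of 0.41 to 0.52.

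S8H, the last of the 4 steps, had levels of 5.65, 5.61 and 5.76 in mutant roots on -Fe, against 0.111, -0.109 and -0.133 on +Fe. In Col roots it had 4.58, 5.34 and 4.97 on -Fe, against -0.321, -0.276 and 0.041 on +Fe. The gap between the media exceeded 4 log2 units in both genotypes, and the spread among Col arrays on -Fe (SD 0.38) was wider than among mutant arrays (SD 0.07). S8H rose by 5.72 ± 0.16 in the mutant (52.6-fold, limma adjusted p = 9.53e-12) and by 5.15 ± 0.16 in Col (35.5-fold, limma adjusted p = 2.87e-11). Counted down from the largest rise, it stood at place 3 of all probe sets in mutant roots and at place 4 in Col roots.

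**Figure D1:**
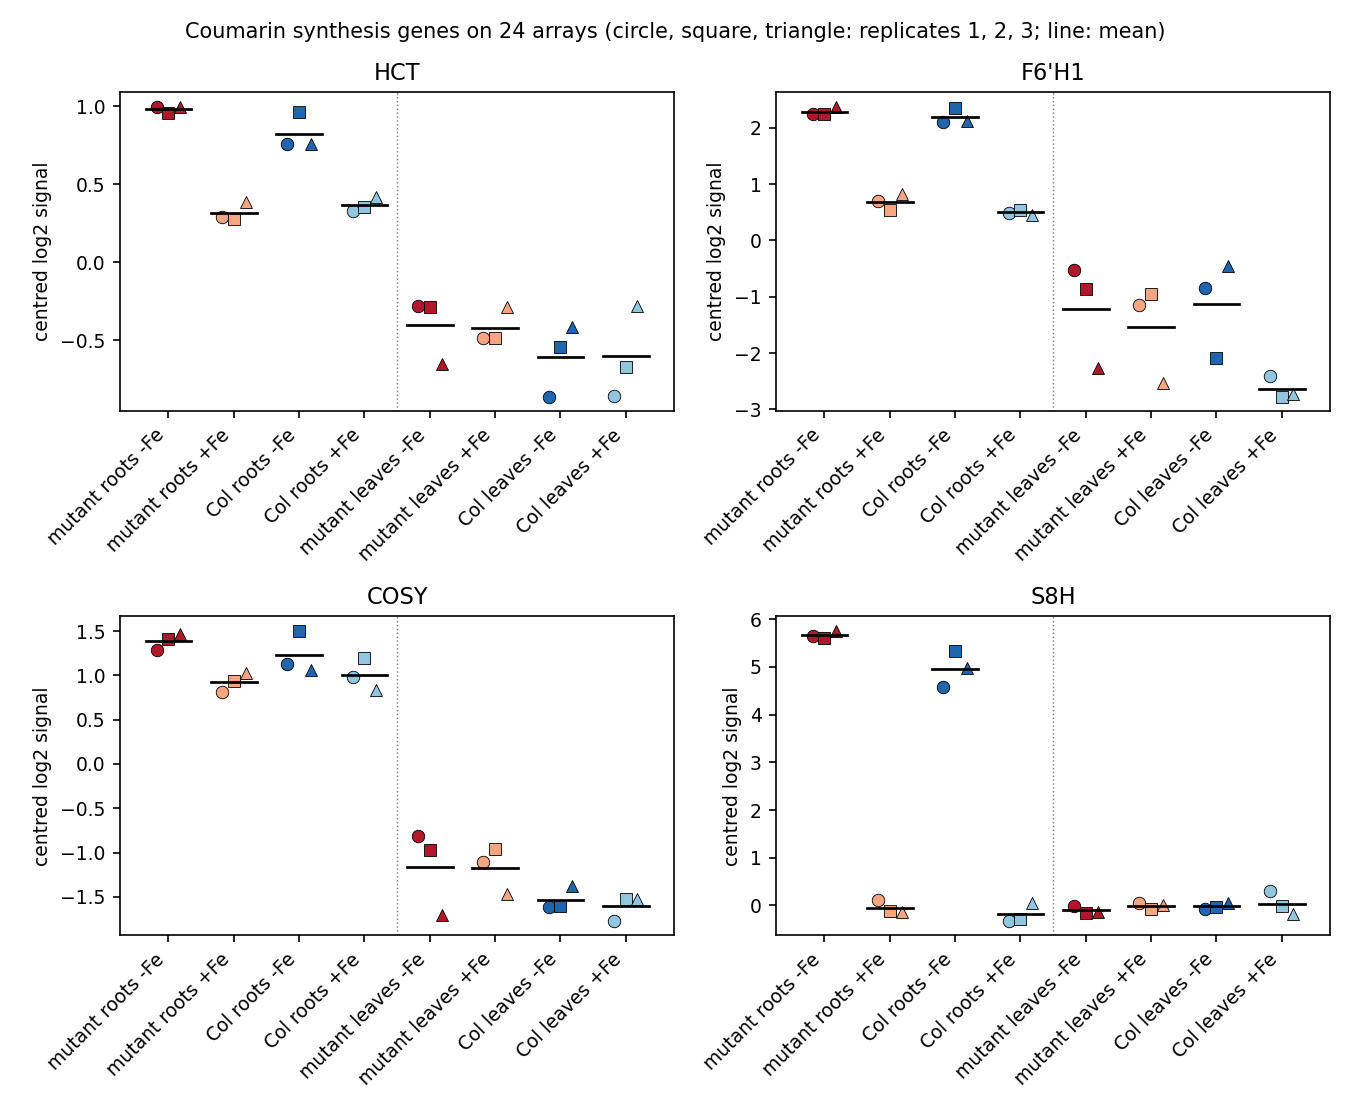
Level of each gene (log2 signal relative to the probe set's median over 24 arrays) on every array, by group of genotype, tissue and medium; points are arrays and bars are group means. S8H stands near 0 in 6 groups and between 4.58 and 5.76 in iron-starved roots, whereas F6'H1, COSY and HCT lie lower in leaves than in roots.

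In all, 4 of 4 genes were called higher on -Fe in mutant roots, beside 2.87% of all probe sets. In Col roots 3 of 4 were, beside 2.2% of all probe sets. The mutant count includes the COSY call, which was near the threshold. The genes were chosen with earlier results of these data known, so the counts are a description only. The median difference over the 4 genes was 1.13 in the mutant and 1.07 in Col, beside medians over all probe sets of -0.000307 and 0.0133. The control genes' 5' to 3' difference moved with the medium in mutant roots, as given above, and its part in these rises was not tested. The order of the differences by size was S8H, F6'H1, HCT and COSY in both genotypes.

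**Figure D2:**
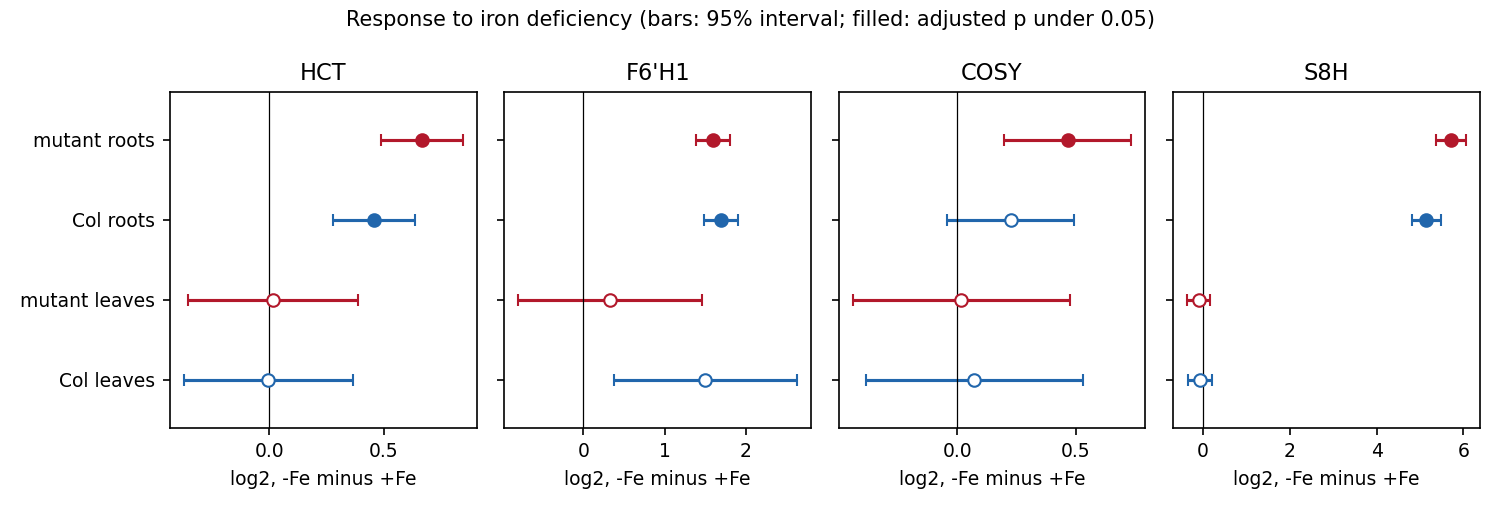
Difference between -Fe and +Fe (log2, with 95% intervals, n = 3 arrays each) for each gene in roots and leaves of the mutant and of Col. The root intervals lie above 0 except that of COSY in Col, which runs from -0.04 to 0.49, and the leaf interval above 0 is that of F6'H1 in Col, 0.37 to 2.63.

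Whether the iron response itself differed between the genotypes in roots was tested as an interaction. S8H responded more strongly in the mutant by 0.57 ± 0.22 on the log2 scale, with a 95% interval of 0.09 to 1.05, and the difference did not pass the test (limma adjusted p = 0.595). The interaction was 0.24 ± 0.18 for COSY and 0.21 ± 0.12 for HCT, and -0.10 ± 0.14 for F6'H1. With limma, 0 of 4 genes passed the test and 1, S8H, had an unadjusted p under 0.05. The test called 0.0168% of all probe sets. COSY is therefore not shown to respond differently in the genotypes, although its call was made in the mutant and not in Col.

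The same question in leaves gave no call. S8H had levels of -0.010, -0.151 and -0.146 in mutant leaves on -Fe, against 0.043, -0.069 and 0.0078 on +Fe. In Col leaves it had -0.080, -0.027 and 0.049 on -Fe, against 0.307, -0.0078 and -0.177 on +Fe. The media overlapped in both genotypes, and the differences were -0.10 ± 0.12 in the mutant (limma adjusted p = 0.881) and -0.06 ± 0.12 in Col (limma adjusted p = 0.91). Their 95% intervals, -0.37 to 0.17 in the mutant and -0.33 to 0.21 in Col, lay below the rises in signal seen in roots. Signal over background is unknown, so a low S8H probe set in leaves cannot be told from an unchanged one.

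F6'H1 had levels of -0.524, -0.858 and -2.27 in mutant leaves on -Fe, against -1.15, -0.957 and -2.53 on +Fe. In Col leaves it had -0.845, -2.09 and -0.461 on -Fe, against -2.40, -2.77 and -2.72 on +Fe. The mutant groups overlapped, with the third array of each medium the lowest, and the Col groups did not. The difference was 0.33 ± 0.52 in the mutant (limma adjusted p = 0.915) and 1.501 ± 0.52 in Col (2.83-fold, place 36 from the largest rise, limma adjusted p = 0.272). The standard error for F6'H1 in leaves was thus 0.52, against 0.10 in roots. In Col the same value of 1.501 passed the test when the third mutant leaf arrays, which share the estimate of the spread, were left out (limma adjusted p = 0.0343), and when all 24 arrays shared 1 estimate (limma adjusted p = 0.0373).

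COSY had levels of -0.808, -0.967 and -1.70 in mutant leaves on -Fe, against -1.11, -0.955 and -1.46 on +Fe, and in Col leaves -1.62, -1.61 and -1.37 on -Fe, against -1.77, -1.53 and -1.52 on +Fe. HCT had -0.277, -0.283 and -0.651 in mutant leaves on -Fe, against -0.483, -0.486 and -0.289 on +Fe, and in Col leaves -0.859, -0.543 and -0.415 on -Fe, against -0.855, -0.667 and -0.282 on +Fe. The media overlapped for both genes in both genotypes. The differences for COSY were 0.017 ± 0.21 in the mutant and 0.073 ± 0.21 in Col, and those for HCT were 0.016 ± 0.17 and -0.0038 ± 0.17. With limma, 0 of 4 genes passed the test in mutant leaves, where 0.427% of all probe sets were called, and 0 of 4 in Col leaves, where 1.03% were. At an unadjusted p under 0.05 the numbers of genes were 0 in the mutant and 1 in Col, which was F6'H1.

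In leaves the genotypes' iron responses differed by -1.17 ± 0.73 for F6'H1, with a 95% interval of -2.77 to 0.42 (limma adjusted p = 0.939). The interaction lay between -0.056 and 0.019 for the other 3 genes. With limma, 0 of 4 genes and 0 of 17810 probe sets passed this test, beside 0 genes and 910 probe sets with an unadjusted p under 0.05.

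Whether the genes responded differently in roots and leaves was tested over all 24 arrays. S8H rose more in roots by 5.81 ± 0.21 in the mutant (limma adjusted p = 1.18e-13) and by 5.21 ± 0.21 in Col (limma adjusted p = 1.1e-12). It was called in a setting where 1.13% of all probe sets were called upward in the mutant and 0.966% in Col. HCT differed by 0.65 ± 0.19 in the mutant (limma adjusted p = 0.0829) and by 0.46 ± 0.19 in Col (limma adjusted p = 0.343), and F6'H1 by 1.27 ± 0.56 and 0.19 ± 0.56 (limma adjusted p = 0.253 and 0.946). COSY differed by 0.45 ± 0.26 and 0.15 ± 0.26. For F6'H1, HCT and COSY, a difference between the tissues in the iron response was thus not shown by this fit. With the replicate number as a block within each genotype, F6'H1 (1.27, limma adjusted p = 0.0225) and HCT (0.65, limma adjusted p = 0.0387) passed the test in the mutant. The numbers were taken to pair its leaves and not its roots. Matched by number, F6'H1 was higher on -Fe in mutant leaves by 0.626, 0.0991 and 0.258, with the third array the lowest on each medium. Mutant leaf arrays of different numbers also correlated, as given below, so these differences are a description only. With array weights all 3 passed the test in the mutant, at 1.45 for F6'H1, 0.51 for HCT and 0.52 for COSY.

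The levels themselves differed between the tissues on +Fe and on -Fe. On +Fe, F6'H1 was higher in roots than in leaves by 2.24 ± 0.40 in the mutant and 3.13 ± 0.40 in Col, COSY by 2.099 ± 0.18 and 2.61 ± 0.18, and HCT by 0.74 ± 0.13 and 0.97 ± 0.13, with limma adjusted p-values of 4.73e-05 or smaller. On these 3 genes no root array overlapped a leaf array. S8H differed by -0.04 ± 0.15 in the mutant (limma adjusted p = 0.835) and -0.23 ± 0.15 in Col (limma adjusted p = 0.181), and its arrays overlapped. The Col value passed the test after quantile normalization, at -0.29, and with array weights, at -0.34.

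On -Fe all 4 genes were higher in roots. The difference was 5.78 in the mutant and 4.98 in Col for S8H, 3.505 and 3.33 for F6'H1, 2.55 and 2.76 for COSY, and 1.39 and 1.43 for HCT. These fits called 3 of 4 genes on +Fe and 4 of 4 on -Fe in each genotype. They also called 36.5% of all probe sets higher in roots of the mutant and 38.6% in roots of Col on +Fe, and 39% and 38.3% on -Fe, so that a call between the tissues is common on this array. The median over the 4 genes on -Fe was 3.03 in the mutant and 3.04 in Col, beside 0.106 and 0.0769 over all probe sets.

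Set in order of level, the groups fell into different patterns for the 4 genes. S8H was highest in mutant roots on -Fe (mean 5.67) and next in Col roots on -Fe (4.96), and these groups did not overlap. Its other 6 groups had means of -0.19 to 0.041 and overlapped one another. F6'H1 formed 3 tiers: iron-starved roots (2.29 in the mutant and 2.19 in Col), iron-fed roots (0.691 and 0.500), and leaves, from -1.13 in Col on -Fe to -2.63 in Col on +Fe. Within each tier its neighbouring groups overlapped.

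HCT had the same 3 tiers, at 0.983 and 0.823 in mutant and Col roots on -Fe, 0.317 and 0.368 in mutant and Col roots on +Fe, and -0.605 to -0.404 in leaves. The neighbours within each tier overlapped. COSY had 1 root tier, from 1.39 in mutant roots on -Fe to 0.923 in mutant roots on +Fe, in which each group overlapped the next, and 1 leaf tier, from -1.16 in mutant leaves on -Fe to -1.61 in Col leaves on +Fe.

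The study's other axis was genotype, which asks whether loss of RGLG1 and RGLG2 altered the levels. In roots on -Fe, S8H was 0.71 ± 0.16 higher in the mutant than in Col (1.64-fold, 95% interval 0.37 to 1.05, limma adjusted p = 0.0223), and the arrays listed above did not overlap. F6'H1 differed by 0.09 ± 0.10, COSY by 0.16 ± 0.13 and HCT by 0.16 ± 0.08 (limma adjusted p = 0.352), and none of the last 3 passed the test. The count was 1 of 4 genes, beside 1.81% of all probe sets called higher in the mutant.

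The S8H call was fragile. It was lost without replicate 1 or 3 of Col, or without any 1 of the mutant arrays, with values of 0.52 to 0.74, and after quantile normalization, where the difference was 0.20 (limma adjusted p = 0.355). Quantile normalization gives a rank the same value on every array. Among all values of its array, S8H had ranks 4, 4 and 3 in mutant and 6, 5 and 5 in Col roots on -Fe. How far those ranks limit a difference in S8H under that setting was not tested. The cause of the lost calls was not tested.

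In roots on +Fe the differences between mutant and Col were 0.14 ± 0.16 for S8H, 0.19 ± 0.10 for F6'H1 (limma adjusted p = 0.23), -0.08 ± 0.13 for COSY and -0.05 ± 0.08 for HCT, and the arrays overlapped for each gene. With limma, 0 of 4 passed the test (0 at an unadjusted p under 0.05), beside 10.7% of all probe sets called in either direction.

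**Figure D3:**
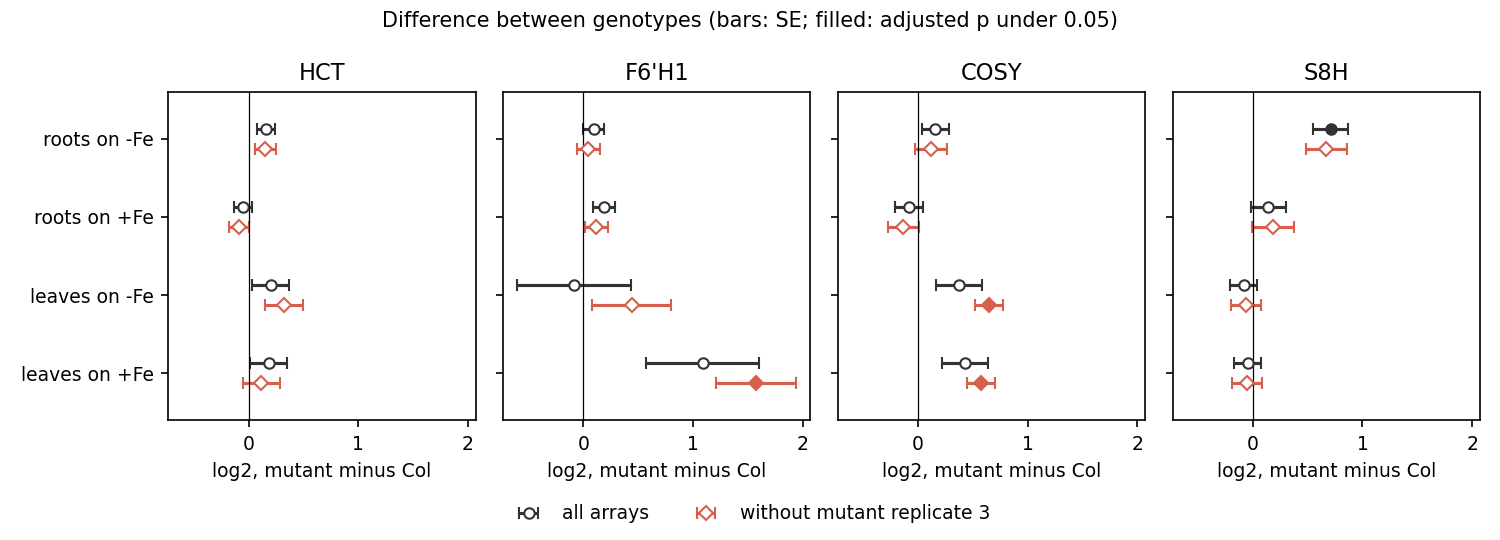
Difference between mutant and Col (log2, bars are SE) for each gene in roots and leaves on both media. Values are shown with all arrays (n = 3 each) and without replicate 3 of the mutant. With all arrays, the 95% interval of S8H in roots on -Fe, which the bars do not show, was 0.37 to 1.05. The widest bars are those of F6'H1 in leaves.

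In leaves on +Fe, F6'H1 was 1.09 ± 0.52 higher in the mutant than in Col (95% interval -0.04 to 2.22, limma adjusted p = 0.172) and COSY 0.43 ± 0.21 higher (limma adjusted p = 0.183). All 3 mutant arrays lay above all 3 Col arrays for COSY, and the F6'H1 arrays overlapped through the third mutant array. HCT differed by 0.18 ± 0.17 and S8H by -0.05 ± 0.12. On -Fe the differences were -0.09 ± 0.52 for F6'H1, 0.37 ± 0.21 for COSY (limma adjusted p = 0.239), 0.20 ± 0.17 for HCT and -0.08 ± 0.12 for S8H. With limma, 0 of 4 genes passed the test on either medium (0 on either at an unadjusted p under 0.05), beside 14.4% of all probe sets on +Fe and 15.9% on -Fe.

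These leaf values depended on the third mutant arrays. With both left out, F6'H1 was 1.58 higher in the mutant on +Fe (limma adjusted p = 0.00793), and COSY was 0.57 higher on +Fe (limma adjusted p = 0.00688) and 0.64 higher on -Fe (limma adjusted p = 0.00367). On -Fe the F6'H1 difference then changed sign, to 0.44 (limma adjusted p = 0.394), and that of HCT was 0.33 (limma adjusted p = 0.176), neither passing the test. Leaving out 1 array at a time gave F6'H1 differences on -Fe of -0.56 to 0.44. Of the 2 root markers, PYK10 was 0.94 ± 0.19 higher in mutant than in Col leaves on -Fe (limma adjusted p = 0.00974) and 0.57 ± 0.19 higher on +Fe (limma adjusted p = 0.0688). EXPA7, the other, differed by -0.10 ± 0.29 on -Fe and -0.14 ± 0.29 on +Fe (limma adjusted p = 0.841 and 0.775). The mean level of both root markers was -2.29 to -1.61 in mutant leaves and -2.42 to -2.19 in Col leaves on -Fe, and -2.10 to -1.71 in mutant leaves and -2.23 to -1.83 in Col leaves on +Fe. The 5' to 3' difference of the control genes was -0.187 to -0.052 in mutant leaves and -0.0011 to 0.084 in Col leaves on -Fe, without overlap, and -0.081 to 0.125 and 0.00014 to 0.110 on +Fe. The part of root markers and of RNA quality in the leaf values was not tested.

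The genotype difference was set against itself in the 2 tissues. On -Fe the S8H difference was larger in roots than in leaves by 0.79 ± 0.21 (limma adjusted p = 0.0211), in a test that called 6.43% of all probe sets upward. The call was lost after quantile normalization, at 0.23 (limma adjusted p = 0.372). It was lost as well without replicate 1 of Col roots on -Fe or replicate 3 of mutant roots on -Fe. On +Fe none of the 4 genes passed with limma (0 at an unadjusted p under 0.05), beside 14.1% of all probe sets called in either direction. The values there were -0.90 ± 0.56 for F6'H1 (limma adjusted p = 0.29) and -0.51 ± 0.26 for COSY (limma adjusted p = 0.179). Both passed the test with array weights, at -1.41 for F6'H1 and -0.78 for COSY (limma adjusted p = 0.00219 and 0.00113), and without the third mutant leaf arrays, at -1.39 and -0.65 (limma adjusted p = 0.00884 and 0.012).

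Other genes of the route were looked at from lists of known pathway genes. Of 18 listed coumarin and general phenylpropanoid genes, 5 could be named on this array, the 4 genes above and F6'H2. F6'H2, a close relative of F6'H1 with the same activity, differed between -Fe and +Fe by 0.04 ± 0.14 in mutant roots and -0.10 ± 0.14 in Col roots and passed the test in neither. Like F6'H1 it was higher in roots than in leaves, by 1.72 to 1.91 over the 4 groups of genotype and medium. F6'H1 and F6'H2 thus shared the tissue difference, and F6'H1 alone of the pair was called for iron, though the contrast between the 2 genes was not tested.

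Of 7 genes for the release and regulation of coumarins, 2 could be named, BGLU42 and PYK10. BGLU42, a beta-glucosidase that frees coumarins from their glucosides, had levels of 2.43, 2.45 and 2.55 in mutant roots on -Fe, against 0.0049, -0.198 and -0.068 on +Fe. In Col roots it had 1.93, 2.62 and 2.19 on -Fe, against -0.263, -0.390 and -0.121 on +Fe. It rose by 2.56 ± 0.14 in the mutant and 2.50 ± 0.14 in Col (limma adjusted p = 2.07e-08 and 2.21e-08), and differed by -0.00093 ± 0.11 and -0.08 ± 0.11 in mutant and Col leaves. In Col roots on -Fe, replicate 1 was the lowest and replicate 2 the highest array for both BGLU42 and S8H. PYK10, an abundant root beta-glucosidase that is also 1 of the 2 root markers, did not pass the test for iron in roots.

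Of 3 glucosyltransferases that act on monolignols and related phenolics, 1 rose in roots of each genotype, beside 2.87% of all probe sets called upward in the mutant and 2.2% in Col. UGT72E1 rose by 2.70 ± 0.14 in the mutant and 2.55 ± 0.14 in Col (limma adjusted p = 9.78e-09 and 1.71e-08). UGT72E2 differed by 0.26 ± 0.10 and -0.02 ± 0.10, and UGT72E3 by -0.07 ± 0.15 and -0.20 ± 0.15, without passing the test. For the branches that compete for the same precursors, 1 of 6 lignin genes and 1 of 7 flavonoid genes could be named. CCR2, a cinnamoyl-CoA reductase of the lignin branch, differed by 0.17 ± 0.13 in mutant and 0.15 ± 0.13 in Col roots, and DFR, the dihydroflavonol reductase, by -0.13 ± 0.21 and -0.69 ± 0.21 (limma adjusted p = 0.747 and 0.0818).

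**Figure D4:**
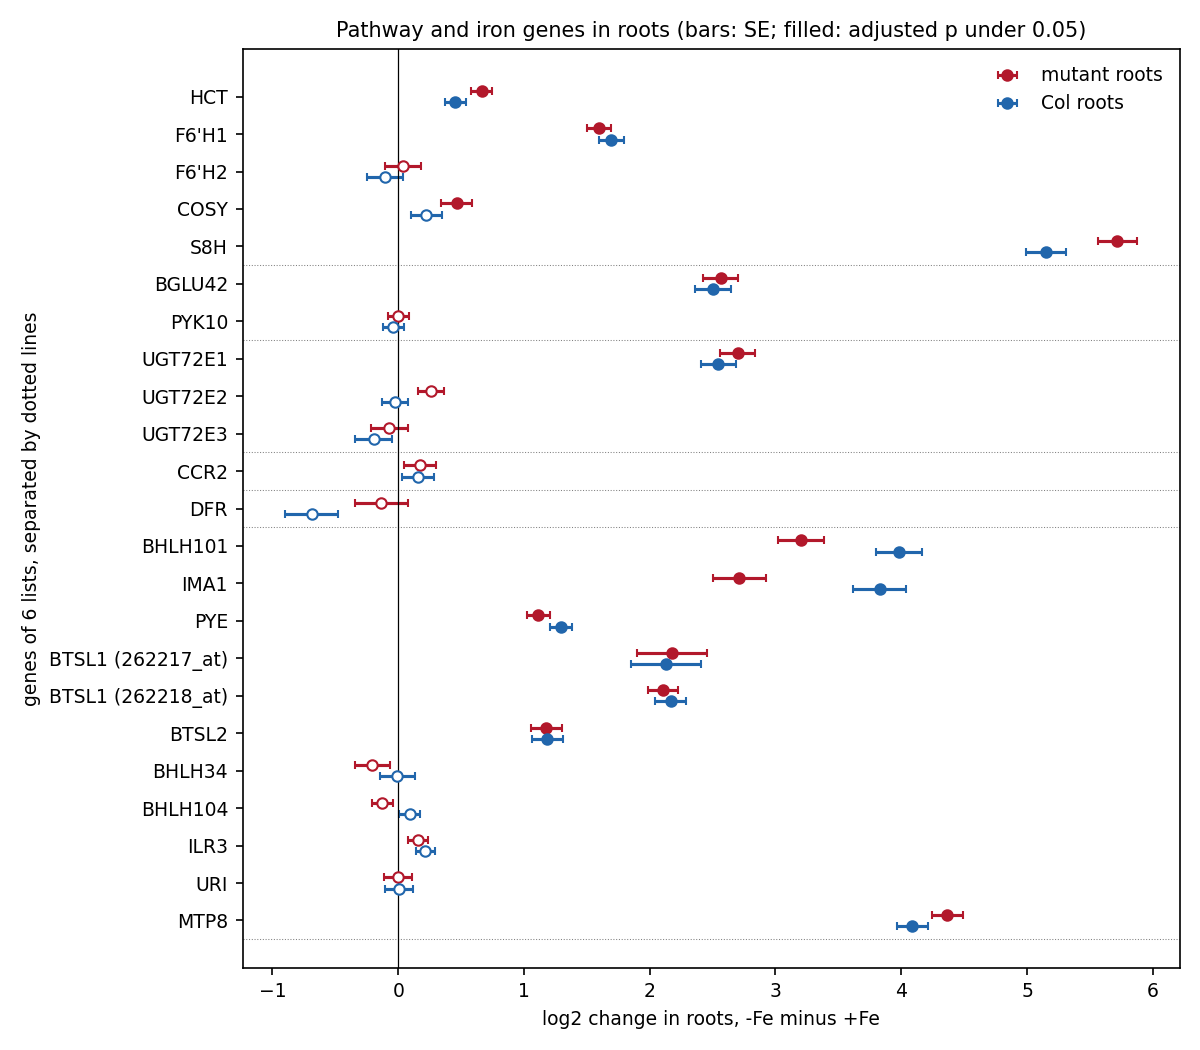
Difference between -Fe and +Fe in roots (log2, bars are SE, n = 3 arrays each) of the mutant and of Col. Shown are the 4 genes and the other pathway and iron uptake genes that could be named. Filled points had a limma adjusted p under 0.05. UGT72E1 and BGLU42 lie at 2.50 to 2.70, between S8H and F6'H1, while F6'H2, UGT72E2, UGT72E3 and CCR2 have values between -0.20 and 0.26.

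Of 18 genes of iron uptake and its regulation, 10 could be named, and 6 rose in roots of each genotype, beside the same 2.87% and 2.2% of all probe sets. The 6 were the bHLH regulators BHLH101 and PYE, the peptide gene IMA1, the E3 ligase genes BTSL1 and BTSL2, and the metal transporter gene MTP8. MTP8 rose by 4.37 ± 0.12 in the mutant and 4.09 ± 0.12 in Col, and BTSL2 by 1.18 ± 0.12 and 1.19 ± 0.12. In leaves, 4 of the 10 rose in each genotype, beside 0.157% of all probe sets called upward in the mutant and 0.511% in Col. Among them BHLH101 rose by 4.62 ± 0.30 in the mutant and 6.24 ± 0.30 in Col. BTSL1 was counted there by 1 of its 2 probe sets, and the other did not pass the test in leaves. Leaves on -Fe thus differed from leaves on +Fe in these regulators while 0 of the 4 coumarin genes were called there, as given above. The median over the 11 probe sets of this list was 1.18 in mutant roots and 1.296 in Col roots, and 0.12 and 0.54 in leaves.

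Finally, the genes most like each of the 4 were sought by Pearson's correlation among probe sets with 1 named gene. All arrays are shared by the genes compared and fall into groups, so that r mainly reflects differences between groups and is given as a description. Over the 12 root arrays the gene most like S8H was BGLU42 (r = 0.997), followed by AT5G38820 (0.993), AT3G07720 (0.993), F6'H1 (0.992) and AT3G61930 (0.991). BGLU42 was likewise the nearest to F6'H1 (0.994), and S8H and BGLU42 followed AT5G24760 for HCT (0.979 and 0.978 after 0.980). COSY was nearest to AT2G16860 (0.946), and its r with the other 3 genes was 0.779 to 0.847, against 0.968 to 0.992 among S8H, F6'H1 and HCT.

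Over all 24 arrays S8H was again nearest to BGLU42 (0.992), with MTP8 (0.985) next and UGT72E1 (0.964) as the last of the 5 named. F6'H1 was nearest to BTSL2 (0.973), which was also among the 5 nearest to HCT (0.965). COSY and HCT shared AT5G24760 as the nearest gene (0.994 and 0.970), and UGT72E2 (0.991), a gene higher in roots than in leaves and not called for iron in roots, was among the 5 nearest to COSY.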

How the data were processed

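Per the submitters' processing notes, which name RMA without a version, the deposited table holds log2 values per probe set. No source used here gives other steps before deposit or says whether roots and leaves were normalized together. Each probe set had a median of 0 over the 24 arrays, so values are relative and no filter on low values was possible. Of 17854 probe sets, 44 controls were left out. Platform annotation gave 9869 of the other 17810 a single gene, 353 several and 7588 none, and 9822 single genes matched a locus in the TAIR10.1 gene table, used for names only. Whether the mutant lacks RGLG1 and RGLG2 transcript was not analysed here.

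Groups were taken from the labels. Each contrast was fitted with limma 3.58.1 in R 4.3.3 (1 mean per group, two-sided, Benjamini-Hochberg over all probe sets, called at adjusted p under 0.05), within a tissue (8 residual degrees of freedom) or over all 24 arrays for tissue contrasts (16). Intervals are 95% and the number of arrays limits the precision. Named genes are the 4 genes, listed pathway genes and the 5 most correlated genes of each; these genes and lists were chosen with earlier results of these data known. Planned counts over the genes' enzyme families were not made, since the gene table gives no product names. Comparisons that share arrays are not independent.

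Replicate numbers are shared between groups. Deviations of same-numbered arrays correlated at 0.391 to 0.599 between media in mutant leaves, which passed the limit of 0.1 for every pair, and at -0.0811 to 0.42 in the other 3 pairs of media and -0.288 to 0.165 between genotypes. The numbers were therefore taken to pair mutant leaves only. Between media there, arrays 1 and 2 of different numbers also correlated, at 0.232 and 0.349, which is above that limit. The third arrays correlated with arrays 1 and 2 of the other medium at -0.509 to -0.415. Pairing and a deviation shared by the third arrays were not told apart. Alternatives were quantile normalization, array weights, median subtraction, a robust fit, replicate blocks, other sets of arrays and leaving out arrays.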

Additional observations from a re-analysis of the deposited data

Results flagged for a closer look

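Differences between groups were tested as interactions, and 3 of those for S8H passed. Its iron response was larger in roots than in leaves by 5.815 in the mutant and by 5.209 in Col on the log2 scale, a difference seen on all 6 iron-starved root arrays. The genotype difference on -Fe was larger in roots than in leaves by 0.7938, and this value was called under fewer settings than the other 2. Every group held 3 arrays, so a check for outlying arrays that needs 4 or more could not be made. The third mutant leaf array of each medium correlated less with the others, as given above.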

How the results depend on the processing

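The 72 values of the 4 genes (18 comparisons each) gave 1144 values under other settings, of which 1100 kept their call, 18 lost one, 26 gained one and 0 reversed; 58 of the 72 kept their call throughout. Median subtraction and the robust fit changed no call, nor did fitting only the groups compared in the 64 values where that could be done. The replicate block by shared number changed none of 72 calls. The replicate block within a genotype, whose numbers were taken to pair mutant leaves only, gave a call to F6'H1 for iron in Col leaves (1.501). In the mutant, it gave calls to the tissue by iron difference of F6'H1 (1.269) and HCT (0.6497), and it changed no call for iron in leaves. With 1 spread over all 24 arrays, iron calls were lost for HCT in Col roots (0.4554) and COSY in mutant roots (0.4656), and gained for F6'H1 in Col leaves (1.501) and between mutant and Col leaves on +Fe (1.087). Quantile normalization ended the S8H calls between mutant and Col roots on -Fe (0.2002) and for tissue by genotype on -Fe (0.226), and gave calls to S8H between Col roots and leaves on +Fe (-0.2898) and to HCT for tissue by iron in the mutant (0.8258). Array weights gave calls to F6'H1 for iron in Col leaves (1.669), between mutant and Col leaves on +Fe to F6'H1 (1.565) and COSY (0.6142), on -Fe to COSY (0.5017), between Col roots and leaves on +Fe to S8H (-0.3388), for tissue by iron in the mutant to F6'H1 (1.446), COSY (0.5156) and HCT (0.5116), and for tissue by genotype on +Fe to F6'H1 (-1.407) and COSY (-0.7827). Without replicate 3 of mutant roots on both media, calls were lost for COSY in mutant roots (0.4745) and S8H between mutant and Col roots on -Fe (0.67). Without replicate 3 of mutant leaves on both media, calls were gained by F6'H1 for iron in Col leaves (1.501), between mutant and Col leaves by F6'H1 (1.578) and COSY (0.5727) on +Fe and COSY (0.6447) on -Fe, and for tissue by genotype on +Fe by F6'H1 (-1.388) and COSY (-0.6546). The cause of these changes was not tested.

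Leaving out 1 array at a time changed 15 of 576 calls. The ranges were 0.4079 to 0.5166 for COSY for iron in mutant roots, 0.5172 to 0.9003 for S8H between mutant and Col roots on -Fe, and 0.6 to 0.9831 for S8H for tissue by genotype on -Fe, where calls were lost. Calls were gained for COSY between mutant and Col leaves on -Fe (0.198 to 0.6447, called without mutant replicate 3), F6'H1 between mutant and Col leaves on +Fe (0.7938 to 1.578, called without mutant replicate 3) and HCT for tissue by iron in the mutant (0.5259 to 0.7132, called without replicate 3 of mutant roots on +Fe). Of the counts over all gene lists, tissue markers included, 39 of 110 moved under array weights and 10 of 80 after quantile normalization. A count was taken to move if it changed by over 1.5 times or went to or from none. Since values are relative to each probe set's median, signal over background is unknown, and a low probe set cannot be told from an unchanged one. Leaf differences in F6'H1 had standard errors of 0.52 within leaves, and of 0.325 to 0.364 for contrasts of Col leaves or of genotypes without replicate 3 of mutant leaves.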
